A study of Mus musculus with 2 samples.

Results

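Islands of Hdac2 signal in gene deserts that carried no Hdac1 island made up 2704 regions. They were selected on measured positions: islands of the Hdac2 list on chromosomes 1 to 19 that shared no base with any island of the Hdac1 list and lay over 100 kb from the span of the nearest protein-coding gene in RefSeq. The Hdac2 list held 20307 islands in all, of which 19450 lay on these chromosomes, and 7463 of those shared no base with Hdac1 (38.4%). Chromatin immunoprecipitation with sequencing was done on nephron progenitor cells, which in the fetal kidney form the nephron's epithelium, taken from wild-type mouse embryos at E16.5 and cultured before crosslinking. Per the labels, there was 1 library with an Hdac2 antibody (1 µg in the file labels) and 1 with an Hdac1 antibody (0.5 µg), so antibody and amount cannot be told apart. The Hdac1 list held 30182 islands, 29695 of them on chromosomes 1 to 19. An island is a stretch of mm10 in which the authors' caller, SICER, found more reads than background, with edges on a grid of 200 bp.

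Hdac1 and Hdac2 are closely related enzymes that remove acetyl groups from histones. They bind no DNA sequence themselves and reach chromatin within corepressor complexes such as NuRD, Sin3 and CoREST, often together. Gene deserts are long stretches without protein-coding genes. Some lie beside developmental regulators and hold their distant enhancers, whereas others hold few recognised regulatory elements. The wild-type cells carried no deletion of either enzyme, so antibody specificity was not tested here. With no replicate of either library, no p is given anywhere, and every interval covers counting error only. The read depth behind the islands is unknown, and an island missing from a list is not evidence that the protein is absent. Membership was set by the island lists themselves, so the contrast between Hdac2-only and other islands is a description.

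The rule itself set the distance from protein-coding genes at over 100 kb, so these distances are no check of the name. The nearest such gene was a median of 303 kb away (range 100.016 to 2212 kb). The deserts were not free of other annotated genes, and 287 of the 2704 islands (10.6%) touched a gene not annotated as protein-coding. These were long noncoding RNA genes for 206 islands and pseudogenes for 51, and 24 islands touched genes outside the named types. With distance taken from all annotated genes, 763 islands met the rule. The nearest Hdac1 island was a median of 202 kb away, and 125 islands (4.62%) had one within 10 kb. At the threshold, the 5 nearest members inside it lay 100.016 kb from Msx1, 100.087 kb from Slco6d1, 100.165 kb from Gata6, 100.186 kb from Penk and 100.281 kb from Gbe1. The 5 Hdac2-only islands just outside it lay 99.579 kb from Olfr267, 99.467 kb from Gm8882, 99.454 kb from Ddx10, 99.329 kb from Pnpt1 and 99.11 kb from Klf12.

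Few of these islands lay at an annotated transcript start. RefSeq start windows, from 250 bases before to 50 bases after a start, numbered 2014 in the deserts, and Hdac2-only islands touched 7 of them (0.348%), each at a different long noncoding RNA gene. Shared Hdac2 islands touched 60 windows (2.98%) and Hdac1-only islands 65 (3.23%), from fewer and narrower islands. Start windows are often rich in CpG, the dinucleotide CG, which reads the same on both strands. The 7 windows held a median of 3 CpG (range 1 to 14), the windows in shared islands 6, those in Hdac1-only islands 4, and all desert windows 3. A window with 10 or more CpG was found in 1 of the 7, in 21 of 60 shared and in 9 of 65 Hdac1-only windows, beside 5.71% of all desert windows and 44.0% of all windows on these chromosomes.

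Windows from RefSeq (GRCm38.p6) show this range, printed 5′ to 3′ on the gene's strand with each CpG in capitals. Of the Hdac2-only islands they are the one with the lowest authors' value at a start (Gm33458, chr2:56801255-56801554, minus strand, of which 146 bases lay in the island), the CpG-rich one (Gm34581, chr12:50980463-50980762, plus strand, 138 bases in the island) and the one in the imprinted snoRNA region described below (Ipw, chr7:59678829-59679128, minus strand, wholly in the island). For comparison, Gm31455 (chr6:50822203-50822502, minus strand) carried the lowest-value shared Hdac2 island at a start, and 2410018L13Rik (chr12:23010194-23010493, minus strand) the lowest-value Hdac1-only island.
Gm33458: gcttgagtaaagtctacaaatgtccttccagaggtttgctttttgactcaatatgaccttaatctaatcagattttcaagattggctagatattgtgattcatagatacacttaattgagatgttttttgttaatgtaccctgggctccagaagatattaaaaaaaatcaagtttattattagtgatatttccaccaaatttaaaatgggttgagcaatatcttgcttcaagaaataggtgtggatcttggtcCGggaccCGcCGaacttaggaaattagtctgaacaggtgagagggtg
Gm34581: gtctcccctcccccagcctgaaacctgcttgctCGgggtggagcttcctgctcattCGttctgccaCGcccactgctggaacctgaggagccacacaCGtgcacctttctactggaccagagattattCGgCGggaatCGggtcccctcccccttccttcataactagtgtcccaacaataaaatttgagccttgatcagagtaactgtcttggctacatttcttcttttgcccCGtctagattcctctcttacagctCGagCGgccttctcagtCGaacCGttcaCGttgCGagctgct
Ipw: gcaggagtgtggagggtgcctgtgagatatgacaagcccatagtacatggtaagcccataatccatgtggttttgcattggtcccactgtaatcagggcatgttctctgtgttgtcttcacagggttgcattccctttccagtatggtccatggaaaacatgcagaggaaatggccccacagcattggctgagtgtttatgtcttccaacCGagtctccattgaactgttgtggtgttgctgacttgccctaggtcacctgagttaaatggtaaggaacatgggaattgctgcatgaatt
Gm31455: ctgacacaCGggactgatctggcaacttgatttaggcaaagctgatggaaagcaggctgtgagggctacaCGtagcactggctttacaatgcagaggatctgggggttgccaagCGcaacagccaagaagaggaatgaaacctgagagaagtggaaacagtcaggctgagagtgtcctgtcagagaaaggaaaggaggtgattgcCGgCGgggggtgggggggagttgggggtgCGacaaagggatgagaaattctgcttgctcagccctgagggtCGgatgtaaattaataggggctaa
2410018L13Rik: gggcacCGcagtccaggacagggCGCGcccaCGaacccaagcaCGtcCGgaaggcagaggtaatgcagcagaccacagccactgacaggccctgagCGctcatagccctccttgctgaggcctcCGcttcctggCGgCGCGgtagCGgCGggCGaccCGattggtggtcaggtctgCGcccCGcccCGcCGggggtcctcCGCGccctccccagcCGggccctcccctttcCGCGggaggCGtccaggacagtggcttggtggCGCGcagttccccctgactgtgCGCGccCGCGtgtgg
The windows held 3 CpG at Gm33458, 14 at Gm34581 and 1 at Ipw, against 7 at Gm31455 and 31 at 2410018L13Rik. The islands there were 6.2, 5.2 and 3.2 kb wide, against 7.2 kb for the shared and 1.4 kb for the Hdac1-only island. The other 4 starts touched by Hdac2-only islands belonged to Gm35217, Gm46754, Gm33035 and Gm39095, with 2 to 6 CpG.

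Hdac2-only islands were about as dense in the middle of the deserts as at their edges, whereas islands with Hdac1 were sparser the farther they lay from genes. Desert sequence was 657 Mb, or 27.3% of the sequence used, and held 36.2% of the Hdac2-only islands (95% Wilson interval 35.1 to 37.3%), against 8.39% of the 11987 shared Hdac2 islands and 8.46% of the 17747 Hdac1-only islands. Hdac2-only islands numbered 4.10 per Mb at 100 to 200 kb from a gene, 4.17 at 200 to 500 kb, 3.90 at 500 kb to 1 Mb and 4.35 over 1 Mb away (exact Poisson interval of the last 3.86 to 4.89). The 4 intervals overlapped. Nearer to genes the density was 4.08 per Mb at 50 to 100 kb, 4.08 at 25 to 50 kb, 3.53 within 25 kb outside genes and 1.91 for islands that touched a gene.

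Over the same 4 desert steps shared Hdac2 islands had 2.51, 1.60, 0.626 and 0.152 per Mb. Hdac1-only islands likewise had 3.68, 2.48, 0.913 and 0.152 per Mb (interval of the last 0.0730 to 0.280). Over 1 Mb from any gene there were 286 Hdac2-only islands, against 10 shared Hdac2 and 10 Hdac1-only islands. Islands without Hdac1 thus made up 96.6% of the 296 Hdac2 islands there, 72.9% of the 3710 in all deserts and 17.5% of the 10723 that touched a gene.

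Whether an island counts as Hdac2-only depends on how many Hdac1 islands lie around it, so the 2 whole lists were also set side by side without the overlap rule. All Hdac2 islands numbered 10.9 per Mb at genes, 6.62 at 100 to 200 kb and 4.51 over 1 Mb away. All Hdac1 islands numbered 21.3 per Mb at genes, 6.22 at 100 to 200 kb and 0.305 over 1 Mb away. The Hdac1 list was thus denser at genes and the Hdac2 list denser in the remote deserts. In the other direction, 59.8% of Hdac1 islands lacked Hdac2 both in deserts (1502 of 2510) and on chromosomes 1 to 19 as a whole.

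**Figure D1:**
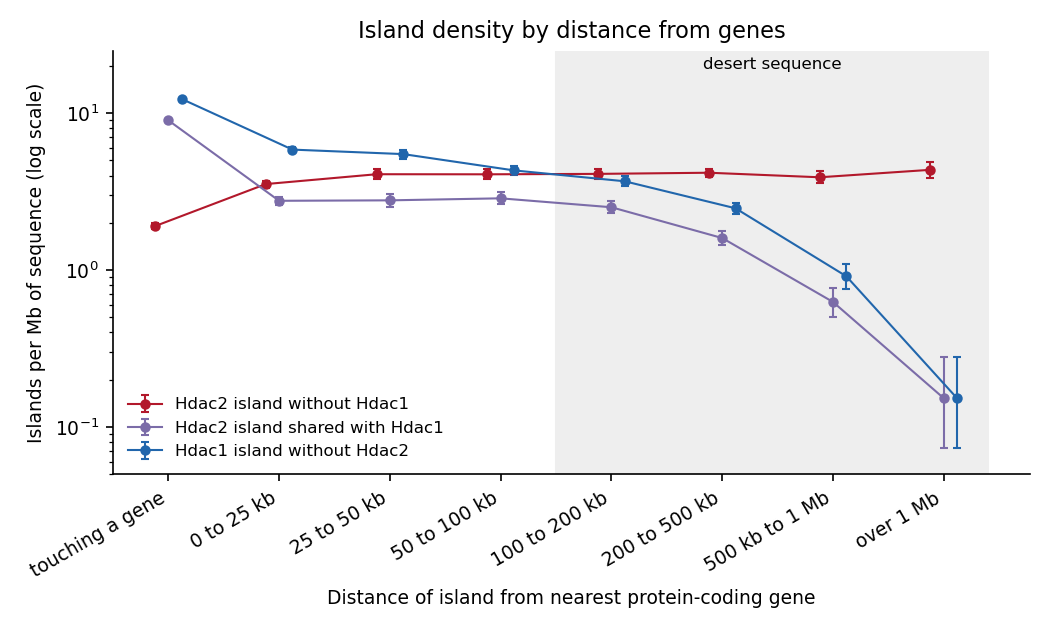
Islands per Mb of sequence (log scale) by distance from the nearest protein-coding gene, for Hdac2-only, shared Hdac2 and Hdac1-only islands; points are densities, bars are 95% exact Poisson intervals and grey marks desert sequence. Hdac2-only islands stay between 3.90 and 4.35 per Mb across the desert bins, while shared Hdac2 and Hdac1-only islands end at 0.152 per Mb.

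The desert islands were broad for this list and of middling strength. Their median width was 3.8 kb (interquartile range 3.0 to 4.8 kb, range 0.4 to 28.4 kb), and together they covered 10.8 Mb. Hdac2-only islands outside genes within 100 kb had a median of 3.8 kb (n = 2886), and those that touched a gene also 3.8 kb (n = 1873). Position relative to genes therefore went with no change in the median width. Shared Hdac2 islands in deserts had a median of 2.0 kb (n = 1006), and Hdac1-only islands there 1.6 kb (n = 1502).

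Islands of 5 kb or more were 626 of the 2704 Hdac2-only desert islands (23.2%), 36 of the shared Hdac2 islands (3.58%) and 4 of the Hdac1-only islands (0.266%). Islands under 2 kb were 101 (3.74%), 469 (46.6%) and 1004 (66.8%) in the same order. Read by width, the share of desert Hdac2 islands without Hdac1 was 18.4% under 1 kb, 17.6% at 1 to 2 kb, 61.2% at 2 to 3 kb, 85.6% at 3 to 4 kb, 92.4% at 4 to 5 kb and 95.2% at 5 to 6 kb. The change lay between 1 and 4 kb, so narrow Hdac2 islands in deserts mostly had an Hdac1 island and wide ones mostly did not.

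**Figure D2:**
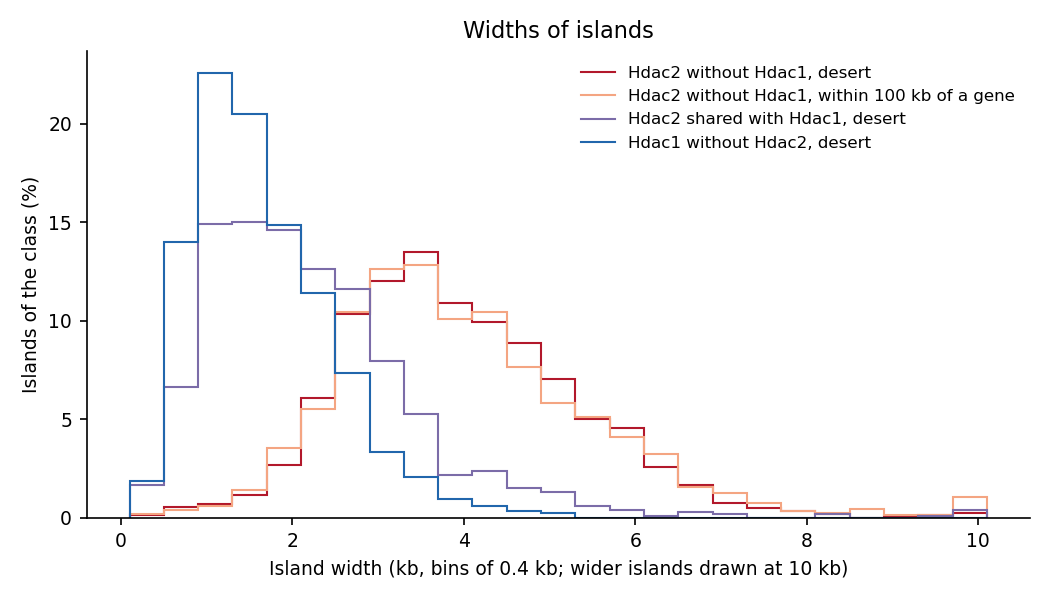
Island widths in kb (bins of 0.4 kb) against the share of each class in percent, for Hdac2-only islands in deserts and within 100 kb of genes, and for shared Hdac2 and Hdac1-only islands in deserts; islands over 10 kb are drawn in the last bin. The outlines of the Hdac2-only classes lie on each other around their medians of 3.8 kb, to the right of the shared (2.0 kb) and Hdac1-only (1.6 kb) desert islands.

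The deposited value of each island is the authors' p-value or perhaps q-value, used here only to rank islands within a list. Its median was 2.25e-08 in Hdac2-only desert islands (interval 1.61e-08 to 3.15e-08), 4.59e-08 in Hdac2-only islands outside genes within 100 kb, and 1.43e-09 in shared Hdac2 desert islands. Of the strongest 10% of the Hdac2 list, members held few: 97 of the 2704 were in it (3.59%), against 174 of the 1006 shared desert islands (17.3%). This was not particular to deserts: the share was 3.40% in Hdac2-only islands outside genes within 100 kb and 4.64% in those that touched a gene. The weakest 10% held 158 members (5.84%) and 59 shared islands (5.86%). Among desert Hdac2 islands, 35.8% lacked Hdac1 in the strongest decile, 66.3% in the next and 72.6 to 80.8% in the 8 weaker deciles. For all Hdac2 islands on the chromosomes used, the shares were 14.2%, 35.8% and 33.3 to 46.3% in the same order. The low share in the strongest decile was thus not particular to deserts either. Within the strongest decile the Hdac2-only desert islands were a median of 5.8 kb wide and the shared desert islands 2.0 kb. In deserts, strong shared islands were thus compact and strong Hdac2-only ones were wide. Across the 2704 islands width and strength had a Spearman rho of 0.22, distance from a gene and width 0.011, and distance and strength -0.0019, as descriptions over islands of a single library.

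The lowest value of all, 5.14e-55, belonged to the widest one, 28.4 kb at chr8:20045001-20073400, which touched the pseudogene Gm20778 and lay 110 kb from 9530057J20Rik. Next came a 3.2 kb island at chr17:13550201-13553400 (1.51e-43) over the long noncoding RNA gene 2700054A10Rik, 163 kb from Tcte2, with an Hdac1 island 1.60 kb away. An island of only 0.8 kb lay over the noncoding gene Gm34259 at chr17:4626001-4626800 (4.38e-38), 367 kb from Arid1b, which encodes a subunit of the BAF chromatin remodeller. A 13.0 kb island inside Snhg14 followed (1.33e-32). Each of these 4 touched an annotated noncoding gene or pseudogene.

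The remaining 6 touched none. They included a 6.2 kb island at chr4:27888201-27894400 (1.59e-22), 919 kb from Epha7, an ephrin receptor of axon guidance. One of 6.4 kb lay at chr11:27684401-27690800 (3.13e-22), 695 kb from Ccdc85a. Another, of 8.4 kb at chr6:64922601-64931000 (8.07e-22), lay between Smarcad1, a chromatin remodeller, at 112 kb and Atoh1, a proneural transcription factor, at 191 kb. The nearest Hdac1 islands to these were 404, 502 and 13.8 kb away. The others were at chr8:20079401-20086200, beside the widest island, at chr7:3036201-3037400, before the first gene of its chromosome, and at chr12:92742001-92746200, 138 kb from Gm40892.

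Among the other widest islands, 14.2 kb at chr1:48354201-48368400 lay in the desert between Slc39a10 and Tmeff2, 1428 kb from a gene and 1500 kb from any Hdac1 island. An island of 13.8 kb at chr2:177042601-177056400 lay between Gm14296 and Gm14410. The rest, of 9.4 to 10.2 kb, had Cdk6, Galr1, Vmn1r238, Grb14, Slitrk6 and Msr1 as their nearest genes. The remotest island, of 4.6 kb at chr14:90683401-90688000, was 2212 kb from Pcdh20 and 2326 kb from Pcdh9. The next 3 were 2137 and 2105 kb from Cntnap5b and 2081 kb from Pcdh17, and the fifth, 2074 kb from Pcdh9, shared the desert of the remotest. These genes encode protocadherins and a contactin-associated protein, adhesion molecules of neurons. The 5 remotest islands were 1.0 to 4.6 kb wide.

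Most of the islands stood alone. The nearest other Hdac2-only desert island was a median of 80.1 kb away (interquartile range 29.8 to 192 kb), and 350 islands (12.9%) had one within 10 kb. Joined over gaps of up to 10 kb, 2354 islands remained single, 151 runs had 2 islands, 9 had 3, 4 had 4 and 1 had 5. The run of 5 lay within Snhg14 and spanned 43.6 kb, of which 37.2 kb was covered. Runs of 4 lay at chr2:177042601-177080000 and chr2:177585601-177610200, the one between Gm14296 and Gm14410 and the other beside Zfp970, a zinc finger gene. The other 2 runs of 4 were neighbours on chromosome 13 between BC048507 and Mtrr, and they spanned 32.4 and 29.4 kb. A run of 3 at chr8:20045001-20086200 held the widest island and covered 39.2 of 41.2 kb. Pseudogenes were touched in this run (Gm20778) and in that between Gm14296 and Gm14410 (Gm14421). No source used here says how reads that map to several places were treated, and their part in these runs was not tested.

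Distance to Hdac1 differed from that of Hdac2-only islands near genes. Members had an Hdac1 island within 100 kb in 30.4% of cases, and Hdac2-only islands outside genes within 100 kb in 68.6%. The median distance was 202 kb for members and 49.5 kb for Hdac2-only islands near genes. Hdac1-only desert islands, in turn, were a median of 36.4 kb from an Hdac2 island. The 5 members nearest to an Hdac1 island were 0.601 to 1.00 kb from it.

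Split into stretches between neighbouring genes, the deserts numbered 1397, with a median width of 219 kb and a maximum of 4.34 Mb. All desert widths leave out the 100 kb next to each flanking gene. Hdac2-only islands were present in 761 of them (54.5%), any Hdac1 island in 678 (48.5%) and neither in 392. No Hdac1 island lay in 327 of the 761 (43.0%), and these held 1006 of the 2704 islands (37.2%). Among the 185 deserts over 1 Mb, 184 held an Hdac2-only island and 126 an Hdac1 island. The exception lay between Klhl1 and Dach1 (1.07 Mb), where neither was found. In 57 of the 61 deserts over 2 Mb Hdac2-only islands outnumbered Hdac1 islands.

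Density of Hdac2-only islands changed little with the size of the desert. It was 3.96 per Mb in deserts of up to 100 kb, 4.30 at 100 to 500 kb, 4.18 at 500 kb to 1 Mb, 4.21 at 1 to 2 Mb and 3.82 over 2 Mb (interval of the last 3.54 to 4.12). In the same order, shared Hdac2 islands had 3.67, 2.75, 1.82, 1.20 and 0.332 per Mb, and Hdac1-only islands 4.59, 4.23, 2.91, 1.59 and 0.533. In the smallest deserts the 3 classes were thus alike in number, and in those over 2 Mb Hdac2-only islands were the bulk. Between single deserts over 2 Mb the Hdac2-only density ran from 1.33 to 7.75 per Mb.

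The desert with most members, 22 in 4.08 Mb, lay between Cntnap5b and Cdh20 and held 1 Hdac1 island. Cdh20 encodes a cadherin, a cell adhesion protein. That between Pcdh7 and G6pd2 held 21 in 3.48 Mb, and that between Celf4 and Pik3c3 held 20 in 4.31 Mb, each with 1 Hdac1 island. The desert from Nxph1, a neurexin ligand, to Ndufa4 held 19 in 2.45 Mb, and that from Igfbp7 to Adgrl3, an adhesion receptor of synapses, also 19. Between Dsel and Cntnap5a there were 18. The 4 others held 16 each, and 2 of those, from Lrfn5 to Fscb and from Slc39a10 to Tmeff2, had no Hdac1 island. The desert from Nmbr to Cited2 differed in that 14 Hdac1 islands lay beside its 16 Hdac2-only ones. Cited2 encodes a transcriptional coregulator. Among deserts over 0.5 Mb the densest was between Myom2 and Csmd1, with 8 islands in 0.559 Mb, or 14.3 per Mb, and no Hdac1 island.

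**Figure D3:**
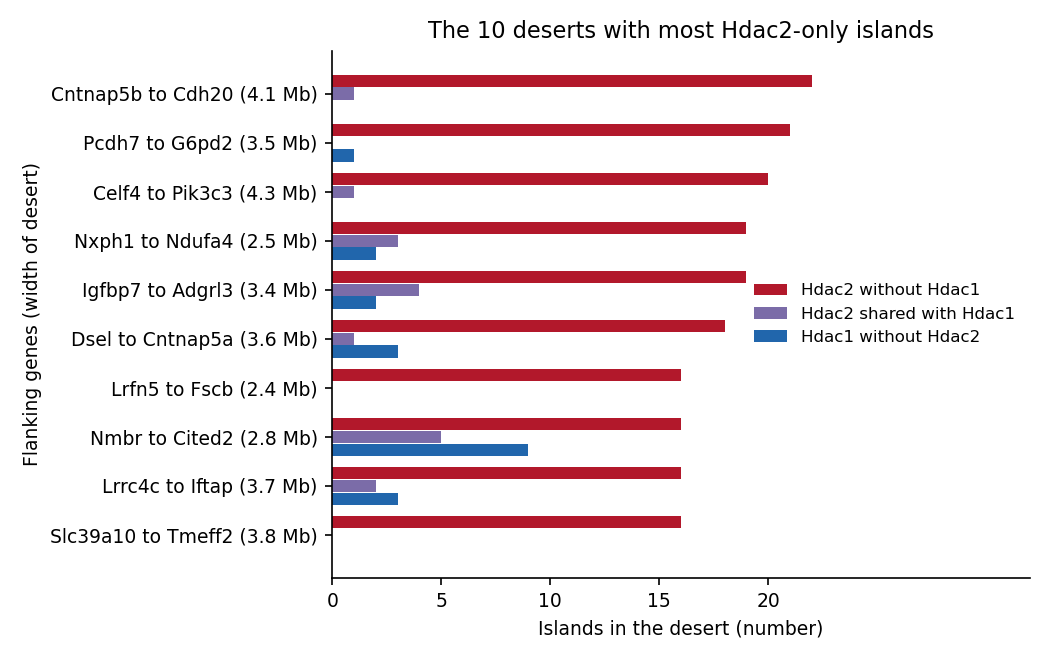
Number of Hdac2-only, shared Hdac2 and Hdac1-only islands in each of the 10 deserts with most Hdac2-only islands, named by the genes on either side, with the width of each desert. Hdac2-only islands run from 22 down to 16, and the other classes reach at most 9.

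The genes that flanked the deserts were read through lists of genes. Of all 20558 protein-coding genes, 2362 flanked a desert and 1312 of these (55.5%) flanked one with an Hdac2-only island. The deserts as a whole held 4.11 Hdac2-only, 1.53 shared Hdac2 and 2.28 Hdac1-only islands per Mb. Of 52 neuronal adhesion and guidance genes, 46 flanked a desert and 42 of them one with a member. Their deserts held 365 Hdac2-only islands, 4.24 per Mb, against 0.534 shared Hdac2 and 0.917 Hdac1-only islands per Mb. Of 21 cadherin and protocadherin genes, 20 flanked a desert and 19 one with a member, at 3.65 Hdac2-only, 0.418 shared and 0.709 Hdac1-only islands per Mb. The Hdac2-only density beside both lists was near that of all deserts, and the density of islands with Hdac1 was lower. Deserts beside these genes are large, with 86.1 Mb in 70 deserts for the neuronal list.

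Several had Hdac2-only islands and no Hdac1 island at all. These included the deserts from Cdh8 to Cdh11 (13 islands), from Got2 to Cdh8 (10), on either side of Ncam2, a neural cell adhesion molecule (12 and 9), beside Tenm4, a teneurin of synapse formation (12), and beside Epha6, an ephrin receptor (11). Other deserts of these lists held many islands with Hdac1. The other side of Cdh11, towards Cdh5, held 4 Hdac2-only, 12 shared Hdac2 and 15 Hdac1-only islands. From Ttll7 to Adgrl2 there were 4, 10 and 6 in the same order, from Flrt2 to Galc 4, 4 and 11, and from Epha7 to Map3k7 10, 7 and 7.

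Beside regulators of kidney progenitors, islands with Hdac1 outnumbered Hdac2-only islands. Of 29 such genes in the annotation, 16 flanked a desert and 8 of them one with a member. The deserts held 27 Hdac2-only islands, 3.40 per Mb (interval 2.24 to 4.95), against 52 shared Hdac2 islands (6.55 per Mb) and 48 Hdac1-only islands (6.05 per Mb). The Hdac2-only interval included the 4.11 per Mb of all deserts. By number these were mostly small deserts, 20 in 7.94 Mb, but that from Lcorl to Slit2 was 1.92 Mb and that from Sall1 to Tox3 1.00 Mb. All deserts of 100 to 500 kb held 2.75 shared Hdac2 and 4.23 Hdac1-only islands per Mb. Those of 500 kb to 1 Mb held 1.82 and 2.91 in the same order, and those of 1 to 2 Mb held 1.20 and 1.59. The desert from Sall1, a zinc finger factor of nephron progenitors, to Tox3 held 2 Hdac2-only, 12 shared Hdac2 and 6 Hdac1-only islands. That from Gas1, a membrane protein needed for progenitor growth, to Dapk1 held 0, 8 and 6 in the same order. Beside Gdnf, the signal that draws the ureteric bud, there were 0, 4 and 6, and beside Six2, the factor that keeps progenitors undifferentiated, 0, 3 and 2. From Osr1, an early factor of kidney mesoderm, to Nt5c1b there were 0, 6 and 3. Of these deserts with 0, those from Gas1 to Dapk1 (0.224 Mb), beside Gdnf (0.211 Mb) and beside Six2 (0.0964 Mb) were small. That from Osr1 to Nt5c1b was larger, at 0.588 Mb. Of all deserts of 100 to 500 kb, 325 of 554 held a member, and of those up to 100 kb, 63 of 449. In the class of 500 kb to 1 Mb, which includes the desert towards Nt5c1b, 189 of 209 did.

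Of the 27 Hdac2-only islands, 14 came from 2 deserts at genes of the Slit and Robo guidance pathway, which also helps to place the ureteric bud. The desert from Lcorl to Slit2 held 8, with 3 shared Hdac2 and no Hdac1-only islands, and that from Robo1 to Robo2 held 6, with no shared and 6 Hdac1-only islands. Fgf20 and Fgf9, growth factors that maintain the progenitors, flanked deserts with 3 members each. The Fgf20 desert had no shared Hdac2 or Hdac1-only island, and the Fgf9 desert 3 shared Hdac2 and 2 Hdac1-only islands. Eya1, the partner of Six2, flanked a desert with 2 members, 7 shared Hdac2 and 1 Hdac1-only island, towards Msc. On its other side were 1 member, 1 shared Hdac2 and 0 Hdac1-only islands.

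Of 65 developmental transcription factor genes, 57 flanked a desert and 36 of them one with a member, and the deserts held 3.17 Hdac2-only (2.67 to 3.73), 1.53 shared Hdac2 and 2.99 Hdac1-only islands per Mb. This Hdac2-only density was the lowest among the lists, with an interval that overlapped those of the kidney and cadherin lists and of the chemosensory list below. It lay below the intervals of the neuronal list (3.81 to 4.70) and of all deserts (3.96 to 4.27). The desert from Pou3f2, a neuronal factor, to Mms22l held 11 Hdac2-only islands and no Hdac1 island. Meis1, a homeobox factor of kidney stroma among other tissues, differed, with 4 Hdac2-only, 8 shared and 8 Hdac1-only islands towards Spred2. Chemosensory receptor genes, which lie in dense clusters, rarely flanked a desert. Of 1502 only 28 did, and 10 of these flanked one with a member. Their deserts, 2.77 Mb in all, held 17 Hdac2-only islands, 6.13 per Mb (interval 3.57 to 9.82), against 2.89 shared Hdac2 and 2.16 Hdac1-only islands per Mb. This was the highest Hdac2-only density among the lists, on few islands, and its interval included the 4.11 per Mb of all deserts.

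Each of the 19 chromosomes had Hdac2-only desert islands, at 3.29 per Mb of desert (chromosome 9) to 5.08 (chromosome 16), with a median of 4.08. Median widths per chromosome were 3.4 to 4.2 kb. The Hdac2-only density exceeded the Hdac1-only density on 18 of 19. On chromosome 13 it was 3.80 (interval 3.17 to 4.51) against 3.89 per Mb. Within 100 kb of the start of the sequence used on a chromosome lay 12 members, and 3 lay within 100 kb of its last gene or island.

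**Figure D4:**
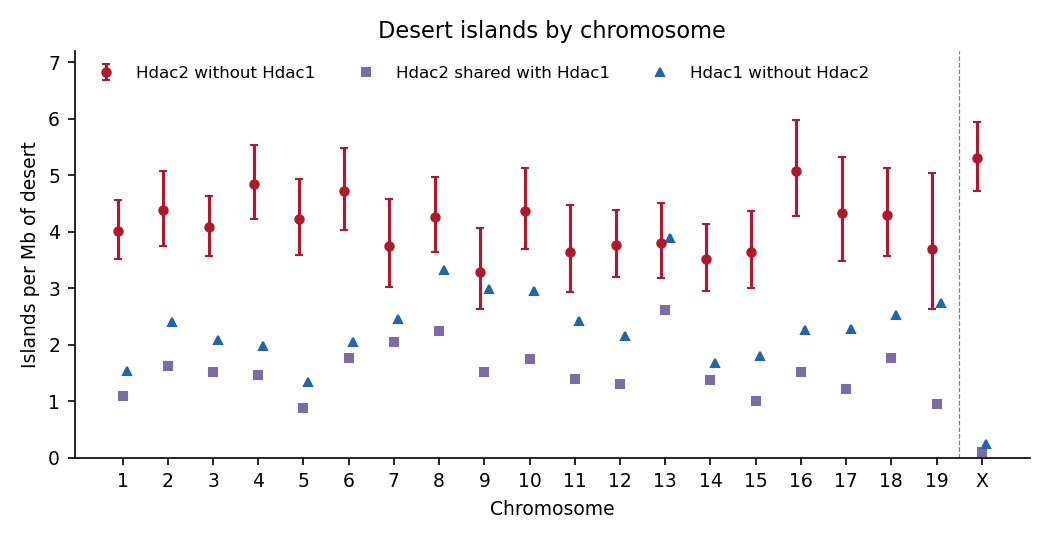
Hdac2-only, shared Hdac2 and Hdac1-only islands per Mb of desert on each chromosome, with 95% exact Poisson intervals for Hdac2-only islands; chromosome X, right of the dashed line, is not among the 2704. Hdac2-only islands lie between 3.29 and 5.08 per Mb on chromosomes 1 to 19, and Hdac1-only islands between 1.35 and 3.89.

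Long noncoding RNA genes were touched less than the share of sequence they occupy. They covered 10.8% of desert sequence, and 206 of 2704 Hdac2-only islands touched one (7.62%, Wilson interval 6.68 to 8.68%), against 272 of 1006 shared Hdac2 islands (27.0%) and 374 of 1502 Hdac1-only islands (24.9%). Shared and Hdac1-only islands reached these shares although they were narrower. Within 1 kb of an end of such a gene lay 26 Hdac2-only islands (0.962%), 106 shared Hdac2 islands (10.5%) and 120 Hdac1-only islands (7.99%). Pseudogenes covered 0.819% of desert sequence and were touched by 51 Hdac2-only (1.89%), 13 shared (1.29%) and 8 Hdac1-only desert islands (0.533%), classes with median widths of 3.8, 2.0 and 1.6 kb. Hdac2-only islands outside genes within 100 kb touched one in 147 of 2886 cases (5.09%). The 113 microRNA genes in the deserts covered only 0.00145% of their sequence. They were touched by no Hdac2-only island (0 of 2704, Wilson upper limit 0.142%), 2 of 1006 shared Hdac2 islands and no Hdac1-only island.

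Antigen receptor loci, which rearrange only in lymphocytes, count here as desert because their segments are not annotated as protein-coding. The Igk locus held 13 Hdac2-only, 1 shared and 2 Hdac1-only islands in 3.17 Mb. Igh held 5 Hdac2-only islands in 2.75 Mb and Igl 2 in 0.234 Mb, both with none of the other classes. Tcra held 4, 1 and 1 in 1.80 Mb. All deserts held 4.11 Hdac2-only islands per Mb, and Igk, Igh and Tcra were near or below that density. Igl was above it, on 2 islands. None of the 2704 touched any of the 326 V segments in the deserts, which covered 0.0230% of desert sequence.

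A group of 9 of the islands lay in Snhg14, a long noncoding RNA gene of 1177 kb (chr7:59272737-60450177) that hosts the snoRNA clusters of the imprinted Prader-Willi and Angelman region and overlaps Ube3a in antisense. They lay within 127 kb at chr7:59678801-59806200, where they covered 53.8 kb. They were 2.6 to 13.0 kb wide, with values of 1.33e-32 to 0.00229. The lowest-placed of the 9 covered the Ipw start window printed above. The gene holds 206 annotated snoRNA genes, and 22 of them touched one of the 9 islands. Of the 8 Hdac2-only desert islands that touched a snoRNA gene anywhere, each lay here.

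Other Hdac2 islands in Snhg14 fell outside the group only because an Hdac1 island touched them or a gene was nearer. An island of 14.8 kb (8.94e-40) and one of 11.4 kb (1.29e-14) stood between members and shared bases with Hdac1 islands of 3.6 and 4.2 kb. Those Hdac1 islands ranked among the weakest of their list, with values of 0.0431 and 0.0535. A 40.2 kb Hdac2 island over the Snord116-like genes (chr7:59857401-59897600, 2.11e-60) lay 84.9 kb from Snrpn and shared bases with another Hdac1 island of 2.4 kb (0.000255). Hdac2 thus had 16 islands across Snhg14 and Hdac1 had 3, and shared status at 2 sites rested on islands near the limit of the Hdac1 list. Near-identical snoRNA copies repeat in tandem here, no source used here says how reads that map to several copies were treated, and the part of such reads in these islands was not tested.

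**Figure D5:**
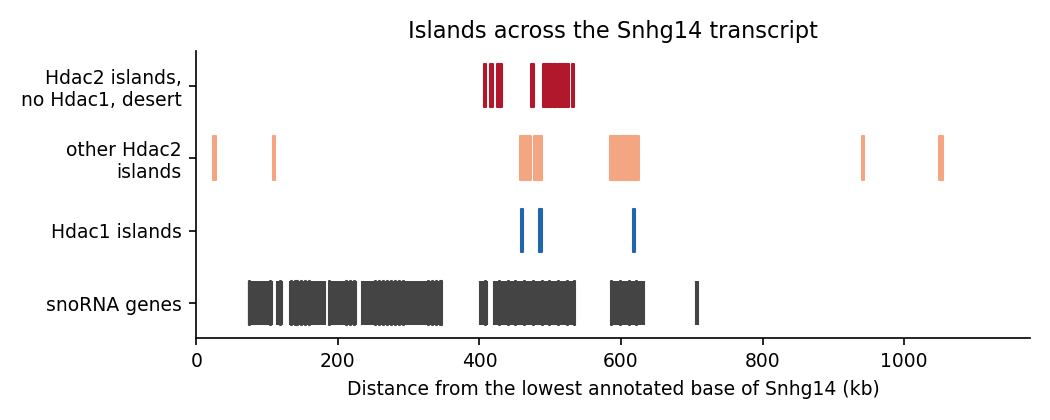
Positions along Snhg14 in kb from its lowest annotated base: Hdac2-only desert islands, other Hdac2 islands, Hdac1 islands and annotated snoRNA genes, each drawn to scale. The 9 Hdac2-only islands lie together among snoRNA genes, 8 of them over at least 1, with 3 Hdac1 islands across the whole gene.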

How the data were processed

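The data are 2 lists of SICER islands, 1 library per antibody, grouped by the antibody in the sample titles. BWA 0.7.5a, FastQC, SICER, bedtools 2.17 and SAMtools 1.3.1 are named, with mm10, per the submitters' processing notes. The sources used here do not give SICER settings, the background library or depth. Libraries came from 500 pg of DNA with 12 cycles of amplification and 1 to 3 more, per the labels' protocols, so reads are not independent molecules. Input, IgG and H3K4me3 libraries were not analysed here. The deposited value per island is a p-value or perhaps q-value from the authors, not stated which.

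Starts were converted to 1-based positions. Genes, start windows and microRNAs came from RefSeq for GRCm38.p6, with 20558 protein-coding genes on chromosomes 1 to 19; 107 with scaffold coordinates were left out. Sequence was counted from base 3000001 of each chromosome to its last gene or island. Shares have 95% Wilson, densities exact Poisson and medians binomial order-statistic intervals. No test was run, because there is 1 library per antibody. Sequence composition of whole islands was planned and not run, for want of a genome. Steps were tested on simulated data and against bedtools 2.31.1. Scripts ran in Python 3.11.15 with pandas 2.3.3, numpy 2.4.6, matplotlib 3.10.9 and scipy 1.17.1. Named islands were the 10 of lowest value, the 10 widest, 5 on either side of the 100 kb limit, the 5 longest runs and the 5 remotest. Named genes flank these, the 10 deserts with most members or are list genes beside a desert. Other named islands, among them those at transcript starts and those in Snhg14 and the antigen receptor loci, and list genes beside deserts without a member, were chosen after their values were seen. A few genes are not reported here. Members and lists were chosen with earlier results of these data known. Alternatives were other distances, overlaps, gene sets and stricter lists.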

Additional observations from a re-analysis of the deposited data

Results flagged for a closer look

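Chromosome X was outside the chromosomes used. By the same rule it held 295 Hdac2-only desert islands, or 5.30 per Mb of desert (exact Poisson interval 4.71 to 5.94), with a median width of 4.0 kb, against 6 shared Hdac2 islands and 14 Hdac1-only islands (0.252 per Mb). The highest Hdac2-only density on chromosomes 1 to 19 was 5.08 per Mb and the lowest Hdac1-only density 1.35. Chromosome Y, also outside, held 54 such Hdac2-only islands with a median width of 3.7 kb. Both are signal in data that the results above do not use, and no control library was analysed beside them.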

How the results depend on the processing

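Hdac2-only islands were 1.51 times as dense in deserts as in other sequence, and Hdac1-only islands 0.246 times. Under 10 alternatives none of these ratios crossed 1, and the median width of the Hdac2-only desert islands was 3.8 kb in each. Every alternative kept an overlap rule, which removes most Hdac2 islands at genes, so the Hdac2-only ratio cannot be read apart from it. Hdac2 islands taken whole were 10.9 per Mb at genes, against 6.62 at 100 to 200 kb and 4.51 over 1 Mb away. Outside genes, Hdac2-only density was 4.08 per Mb at 50 to 100 kb and 4.10 at 100 to 200 kb. The Hdac2-only ratio was 1.60 with a limit of 50 kb from genes, 1.44 with 200 kb, 1.38 for the upper 50% of each list by value, 1.34 where sharing under 50% of bases did not count, 1.40 with distance taken from all annotated genes and 1.79 without genes of provisional symbol. The Hdac1-only ratio was 0.276 with 50 kb, 0.192 with 200 kb, 0.0651 for the upper 50% and 0.130 with all annotated genes. The number of islands, 2704, was 1557 for the upper 50%, with a median value of 1.15e-10, and 763 with all annotated genes, which leave less desert. The share with another member within 10 kb was 7.13 to 19.3%, and that with Hdac1 within 100 kb was 14.8 to 38.3%. The Hdac2-only density over 1 Mb from genes was 1.06 times that at 100 to 200 kb. Alternatives chosen after the data were seen were keeping scaffold genes, leaving out the outer 1 Mb of chromosomes and, for this ratio, taking the upper 50% of Hdac2 islands (1.14) or those of 3 kb or more (1.15). No paired analysis was possible because there is 1 library per antibody, and for the same reason no replicate could be left out. Sequence composition could not be run. Depth is unknown, so weaker Hdac1 signal in deserts cannot be told apart from none.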
